A study of Mus musculus with 6 samples.

Results

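The 48 genes described here drive or restrain the cell cycle and copy the DNA in it, and they were taken by symbol from a fixed list. They were divided by role into 9 G1/S regulators, 12 replication genes, 24 G2/M genes and 3 inhibitors of cyclin-dependent kinases. Each symbol matched 1 Ensembl gene among the 56691 genes counted, and all 48 were among the 15673 genes tested, which had at least 10 counts in at least 3 libraries.

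RNA-seq of whole tissue was performed on the palatal shelves of C57BL/6J mouse embryos at E14.0, the stage at which the shelves rise and grow toward each other. The anterior group was dissected from the anterior 1/3 and the posterior group from the posterior 1/3 of the shelves, with 3 libraries each. The labels name no allele and no treatment, and how many embryos went into a library is not given in the sources used here. The study calls the 6 samples biologically independent.

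A cell enters the cycle when D-type cyclins bind Cdk4 or Cdk6 and phosphorylate the retinoblastoma protein, which releases E2F factors. E2F factors switch on cyclin E and the replication genes in late G1, and the DREAM complex, B-Myb and Foxm1 control the G2/M genes through promoter elements called CHR. Kinase inhibitors such as p21, p27 and p18 oppose this entry, and the outgrowth of the palatal shelves depends on mesenchymal proliferation.

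Exact matches to these elements were counted in the promoters of each group, with no test between the groups. RefSeq (GRCm38.p6) gave a 300-base promoter window for 39 of the 48 genes and for 17492 protein-coding genes in all, and both strands were searched for exact letters. An E2F element was taken as TTTCCCGC, TTTCGCGC, TTTGCCGC or TTTGGCGC, a CHR as TTTGAA or TTCGAA, and a CCAAT box as CCAAT. An E2F element was found in 6 of 10 replication promoters, in 1 of 20 G2/M promoters, in 1 of 6 G1/S promoters and in 0 of 3 inhibitor promoters, against 2.94% of all promoters. A CHR was found in 15 of 20 G2/M promoters, 2 of 10 replication promoters, 0 of 6 G1/S promoters and 0 of 3 inhibitor promoters, against 18.2% of all. CCAAT boxes were found in 17 of 20 G2/M, 7 of 10 replication, 1 of 6 G1/S and 1 of 3 inhibitor promoters, against 39.2% of all. These matches describe letters and not bound sites. No window was matched for Ccnd1, Ccnd2, Ccne2, Mcm4, Gins2, Ccna2, Aurkb, Tpx2 and Foxm1.

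Shown here are the 150 bases before the start of 2 replication genes and 3 G2/M genes, with the motif letters in capitals, as examples of the elements in members described below. Mcm6 and Mcm5 hold E2F elements, which overlap on opposite strands where the capitals run longer than one motif, and CCAAT boxes. Mki67, Kif11 and Cdc20 hold CHR elements and CCAAT boxes.
Mcm6 (chr1:128359706-128359855, minus strand): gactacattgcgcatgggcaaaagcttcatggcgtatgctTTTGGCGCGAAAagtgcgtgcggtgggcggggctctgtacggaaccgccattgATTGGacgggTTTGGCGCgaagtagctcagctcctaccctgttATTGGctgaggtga
Mcm5 (chr8:75109359-75109508, plus strand): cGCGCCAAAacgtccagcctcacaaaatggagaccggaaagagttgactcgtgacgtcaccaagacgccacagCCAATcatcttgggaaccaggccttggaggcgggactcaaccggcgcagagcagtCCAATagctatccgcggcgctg
Mki67 (chr7:135716380-135716529, minus strand): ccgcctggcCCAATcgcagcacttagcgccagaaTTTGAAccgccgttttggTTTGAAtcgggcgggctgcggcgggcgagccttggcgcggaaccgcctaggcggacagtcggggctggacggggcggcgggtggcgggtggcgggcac
Kif11 (chr19:37376232-37376381, plus strand): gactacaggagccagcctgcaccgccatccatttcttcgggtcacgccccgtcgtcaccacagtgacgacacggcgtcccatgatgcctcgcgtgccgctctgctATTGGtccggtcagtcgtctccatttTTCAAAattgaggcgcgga
Cdc20 (chr4:118437344-118437493, minus strand): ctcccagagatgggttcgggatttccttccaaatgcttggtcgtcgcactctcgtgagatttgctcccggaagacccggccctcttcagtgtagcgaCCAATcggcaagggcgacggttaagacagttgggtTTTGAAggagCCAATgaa

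The libraries held between 11378736 and 15172733 counts, and levels are given as CPM, counts scaled to library size after TMM normalisation. Single members had between 227 and 15803 counts in a library. Shox2 and Msx1, known from the anterior palate, were called lower in the posterior libraries, and Meox2 and Tbx22, known from the posterior palate, higher, and the 6 mesenchyme markers were detected at 67.9 CPM or more in every library. Of these, Prrx1 was called lower and Twist1 and Pdgfra higher in the posterior libraries (log2 fold changes -1.34, 0.74 and 1.06). Posterior 2 and posterior 3 stood apart: the share of multimapping reads was 6.12% and 5.94% there and 8.45% to 8.77% elsewhere, and the share of counts on mitochondrial genes 0.973% and 1.14% there and 2.70% to 2.97% elsewhere. All 10 skeletal muscle markers were called, being higher in the posterior palate, with a summed level of 6.83 to 10.6 CPM in the anterior and 575 to 1033 CPM in the posterior libraries. Chondrocyte markers summed to 131 to 173 CPM and to 518 to 662 CPM, and 2 of 5 tested were called higher. Epithelial markers summed to 1435 to 1646 CPM in the anterior libraries and posterior 1, and to 977 and 1062 CPM in posterior 3 and posterior 2, with 1 of 6 called lower. Erythroid markers summed to 468 to 645 CPM in the first 4 libraries and to 358 and 389 CPM in posterior 2 and posterior 3, with 0 of 6 called by edgeR, DESeq2 or limma-voom and 0 at an unadjusted p below 0.05 in edgeR. Endothelial markers summed to 394 to 411 CPM in the anterior libraries and to 344, 520 and 563 CPM in posterior 1, 2 and 3, and 0 of 6 were called by edgeR (1 by DESeq2, 0 by limma-voom, 1 at an unadjusted p below 0.05). Neural and glial markers summed to 232 CPM in posterior 2 and to 29.1 to 59.0 CPM elsewhere, with 0 of 6 called by the 3 tools and 1 at an unadjusted p below 0.05 in edgeR. Of 6 osteoblast markers 5 were lower and 1, Col1a1, higher in the posterior libraries without overlap, with a median log2 fold change of -1.15. By edgeR 1 was called, Dmp1, while DESeq2 called 4 lower and 1 higher and limma-voom 1 lower and 1 higher. The sum of the 6, mostly Col1a1, was 5864 to 8648 CPM in the anterior and 6677 to 11724 CPM in the posterior libraries. Myeloid markers summed to 77.9 to 92.5 and 89.0 to 102 CPM. No marker in these lists was at 0 in all 6 libraries. The part of these cell types in the results on the cell cycle genes was not tested, and in whole tissue fewer cells of a type and less RNA per cell cannot be told apart.

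The regions were compared to ask whether cells along the length of the shelf differ in their cycle genes. In edgeR's quasi-likelihood test with Benjamini-Hochberg adjustment over all genes, 1 of the 48 members was called at an adjusted p below 0.05, Ccnd1, which was higher in the posterior palate. This is 2.08% of the members, against 7.46% of all genes tested (4.87% higher and 2.59% lower). DESeq2, which called 12.6% of all genes, called Ccnd1 and also Ccnd2, which was lower, and limma-voom, which called 6.85%, called Ccnd1 alone. The other members leaned toward lower values in the posterior palate, with 35 of 48 fitted below 0 (72.9%, against 50.4% of all genes) and a median log2 fold change of -0.18 (all genes, -0.0040). The values of anterior and posterior libraries did not overlap in 22 members (45.8%, against 28.0% of all genes). The posterior libraries were lower in 19 of these (39.6% of the members, against 13.4% of all genes) and higher in 3 (14.7% of all genes). At an unadjusted p below 0.05 there were 14 members (29.2%, against 25.2% of all genes), 13 of them lower and 1 higher (9.32% and 15.9% of all genes). The differences were small, as 45 of the 48 fitted log2 fold changes lay within 0.5 of 0, the exceptions being Ccnd1, Mki67 and Cenpe.

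**Figure D1:**
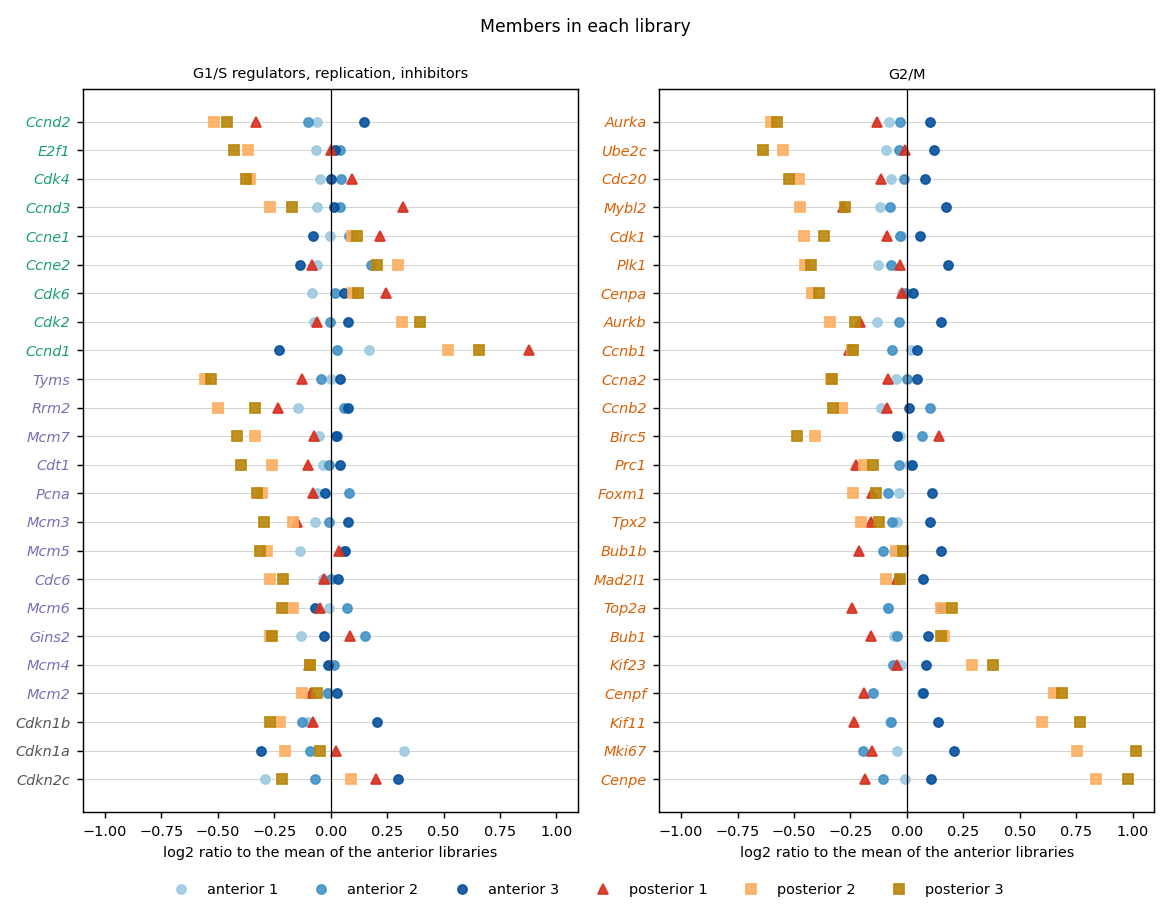
Level of each of the 48 members in each library, as the log2 ratio to the mean of the 3 anterior libraries (x axis), with genes in rows coloured by group and ordered within it by fitted change. Most posterior points of the replication and G2/M genes lie left of 0, posterior 1 (triangles) lies nearer to 0 than posterior 2 and 3 (squares) for many genes, and the 5 lowest G2/M rows show the squares far to the right with the triangle left of 0.

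The count of called members depended on posterior 1. Without it 32 members were called, 25 lower and 7 higher, or 66.7%, where 46.6% of all genes were called (21.2% lower and 25.5% higher). With posterior 1 as the only posterior library, and its spread assumed to equal that of the anterior libraries, edgeR called 2 members higher (Ccnd1 and Ccnd3) and 0 lower, against 8.4% of all genes (3.82% lower and 4.59% higher). At an unadjusted p below 0.05 this comparison gave 4 lower (10.5% of all genes were) and 3 higher (10.3% of all genes were), and 38 of 48 members were fitted below 0 (50.9% of all genes), with a median of -0.090. When the share of multimapping reads, low in posterior 2 and 3 and high in the rest, entered the model as a library-group term, the region effect came from posterior 1 and the anterior libraries, and again 2 members were called higher and 0 lower, where 7.61% of all genes were called.

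Of the 3 D-type cyclins, the sensors that couple outside signals to the cycle, Ccnd1 was called and Ccnd2 and Ccnd3 were not. Ccnd1 (ENSMUSG00000070348.6, chr7:144929931-144939925, minus strand, GRCm38) had 234, 212 and 178 CPM in anterior 1, 2 and 3 and 382, 298 and 327 CPM in posterior 1, 2 and 3. Every posterior library lay above every anterior one. Its log2 fold change was 0.69 (SE 0.14, adjusted p = 0.026, edgeR's quasi-likelihood test). The adjusted p was 0.061 without anterior 1, 0.12 without anterior 2, 0.10 without anterior 3 and 0.062 without posterior 3, so that the call rests on these libraries, while the log2 fold change stayed between 0.59 and 0.88 over 17 alternatives. It was the member with the largest change in posterior 1 alone (log2 fold change 0.87, adjusted p = 0.0077).

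Ccnd2 (ENSMUSG00000000184.13, chr6:127125162-127152193, minus strand, GRCm38) had 1180, 1149 and 1363 CPM in the anterior and 978, 860 and 894 CPM in the posterior libraries. Here every posterior library lay below every anterior one, opposite to Ccnd1. Its log2 fold change was -0.43 (SE 0.12), and it was not called by edgeR's quasi-likelihood test (adjusted p = 0.074). It was called by DESeq2 (adjusted p = 0.0043), with a correction for exon length (log2 fold change -0.69, adjusted p = 0.048) and without posterior 1 (-0.49, adjusted p = 0.0025). The correction removes the trend of genes with long exons in all, and Ccnd2 has 6711 exon bases but a coding sequence of 867. Its own log2 ratio of posterior 2 and 3 to posterior 1 was -0.16. In posterior 1 alone its log2 fold change was -0.33 (adjusted p = 0.11).

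Ccnd3 had 288, 309 and 304 CPM in the anterior libraries and 375, 249 and 266 CPM in the posterior ones. Posterior 1 was above and posterior 2 and 3 were below all anterior libraries, and the log2 fold change over all libraries was -0.017 (SE 0.16, adjusted p = 0.95). It was 0.32 in posterior 1 alone (adjusted p = 0.034) and -0.22 without posterior 1 (adjusted p = 0.020).

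Per kilobase of exon, the 3 D-type cyclins together had 362 ± 11.3 CPM per kb in the anterior and 347 ± 48.2 CPM per kb in the posterior libraries (SD, n = 3), a difference within the posterior spread. The shares and the ratio that follow describe the libraries and were not tested. Ccnd1 made up 17.6%, 16.0% and 12.7% of this sum in anterior 1, 2 and 3 and 25.5%, 25.7% and 26.5% in posterior 1, 2 and 3. Ccnd2 made up 49.3%, 48.3% and 54.2% in the anterior and 36.3%, 41.4% and 40.4% in the posterior libraries. The log2 ratio of Ccnd1 to Ccnd2 was -1.73 ± 0.32 in the anterior and -0.60 ± 0.087 in the posterior libraries (SD, n = 3). Ccnd2 was the most abundant of the 3 per kb in 5 libraries, the exception being posterior 1, where Ccnd3 had 153 and Ccnd2 146 CPM per kb.

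**Figure D2:**
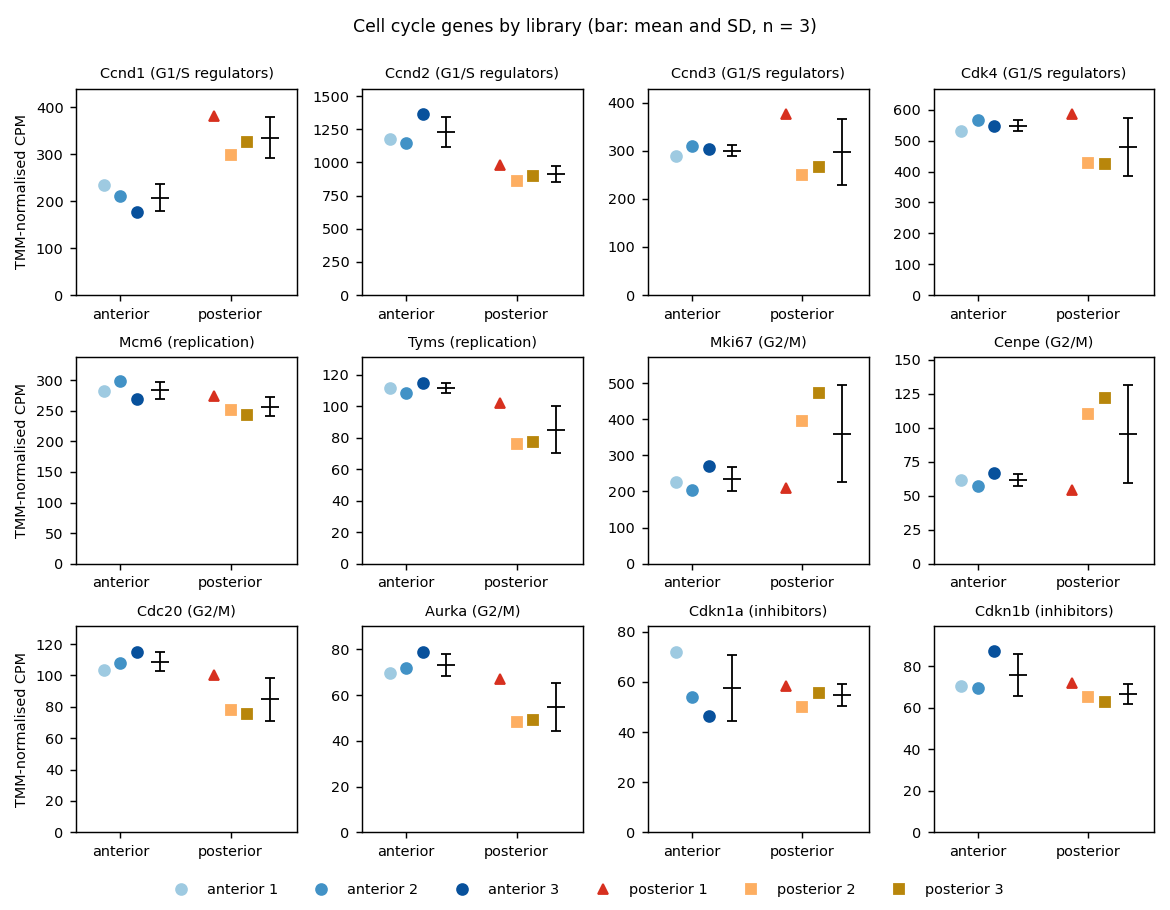
CPM (y axis, from 0) of 12 members in each anterior and posterior library, with the mean and SD of each region as bars (n = 3). Ccnd1 is higher and Ccnd2 lower in all posterior libraries, Tyms, Cdc20 and Aurka are lowest in posterior 2 and 3, and Mki67 and Cenpe are high in posterior 2 and 3, while in posterior 1 Mki67 is within the anterior range and Cenpe just below it.

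The other 6 G1/S regulators were not called, with adjusted p-values of 0.27 to 0.51 in edgeR's quasi-likelihood test. Cdk4, the kinase partner of the D-type cyclins and the most abundant member per kb of exon (250 CPM per kb over all libraries), had 531, 567 and 549 CPM in the anterior and 587, 429 and 423 CPM in the posterior libraries. Its posterior libraries lay on both sides of the anterior ones, and its log2 fold change was -0.20 (SE 0.15, adjusted p = 0.42), or 0.092 in posterior 1 alone. Cdk6, the alternative partner, had 68.1 to 75.2 CPM in the anterior and 77.2 to 85.6 CPM in the posterior libraries, and Ccne1, which encodes cyclin E1, had 50.8 to 56.7 and 57.2 to 62.4 CPM. These were, with Ccnd1, the 3 members whose posterior libraries all lay above the anterior ones, and the log2 fold changes of Cdk6 and Ccne1 were 0.16 (SE 0.091) and 0.14 (SE 0.092). With the correction for exon length (11525 bases in Cdk6, with a coding sequence of 978) that of Cdk6 turned to -0.29. Ccne2, Cdk2 and E2f1 overlapped between regions, with log2 fold changes of 0.15, 0.23 and -0.25 over all libraries and -0.089, -0.062 and -0.0012 in posterior 1 alone. The G1/S group had a median log2 fold change of 0.14, which was 0.036 with the length correction and 0.079 with unstranded counts. It was 0.084 without anterior 3, 0.092 without posterior 2 and 0.092 with posterior 1 alone.

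The 12 replication genes were all fitted lower in the posterior palate, by little. None was called by edgeR's quasi-likelihood test, DESeq2 or limma-voom, and 4 had an unadjusted p below 0.05 in edgeR, all lower (9.32% of all genes were lower). Their median log2 fold change was -0.19, the range -0.39 to -0.092 and the standard errors 0.079 to 0.14. In 8 of the 12 every posterior library lay below every anterior one, as in 13.4% of all genes. Without posterior 1, 8 were called lower (21.2% of all genes were), and in posterior 1 alone 10 of 12 were fitted below 0 (50.9% of all genes) with a median of -0.086.

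Tyms, thymidylate synthase, had the largest of these differences, with 112, 108 and 115 CPM in the anterior and 102, 75.9 and 77.3 CPM in the posterior libraries. Posterior 1 lay just below the anterior range and posterior 2 and 3 well below it. Its log2 fold change was -0.39 (SE 0.13, adjusted p = 0.12, edgeR's quasi-likelihood test), -0.13 in posterior 1 alone and -0.54 without posterior 1. Rrm2, the small subunit of ribonucleotide reductase, which like Tyms supplies DNA precursors, had 124, 143 and 144 CPM and 117, 96.8 and 108 CPM. Its libraries did not overlap, and its log2 fold change was -0.35 (SE 0.11, adjusted p = 0.10, edgeR's quasi-likelihood test).

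The MCM genes encode the helicase that unwinds DNA at the fork. Mcm6, the most abundant of them per kb (61.7 CPM per kb over all libraries), had 282, 298 and 270 CPM in the anterior and 275, 252 and 244 CPM in the posterior libraries, with a log2 fold change of -0.14 (SE 0.094, adjusted p = 0.37, edgeR's quasi-likelihood test). Posterior 1 lay within the anterior range. Mcm2, the member of the group with the smallest difference, had 155, 156 and 160 CPM and 148, 144 and 150 CPM, and Mcm4 186 to 190 and 176 CPM. These 2 genes differed little among the posterior libraries, with log2 fold changes of -0.092 each (SE 0.080 and 0.079). Mcm3, Mcm5 and Mcm7 had log2 fold changes of -0.20, -0.18 and -0.27.

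Pcna, the sliding clamp of the replicative polymerases and the most abundant of the group per kb (131 CPM per kb over all libraries), had 206, 227 and 211 CPM in the anterior and 203, 174 and 171 CPM in the posterior libraries. These did not overlap, by a margin of under 3 CPM for posterior 1, and the log2 fold change was -0.23 (SE 0.10, adjusted p = 0.21, edgeR's quasi-likelihood test). The licensing factors Cdc6 and Cdt1 had log2 fold changes of -0.17 and -0.25, and Gins2, of the helicase complex, one of -0.14. Cdt1 shares its strand with the annotated gene Gm20388, so reads of the overlap could belong to either. Same-strand overlaps were also annotated for Mcm7, Top2a, Kif11, Tpx2, Foxm1 and Mybl2, and what they change was not tested. Over the group, the median log2 ratio to the anterior mean was -0.082 in posterior 1, -0.27 in posterior 2 and -0.30 in posterior 3, where the anterior libraries had -0.045, 0.021 and 0.030.

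Of the 24 G2/M genes, most had lower fitted values in the posterior palate, and several of the longest had their highest values in posterior 2 and 3. None was called by edgeR's quasi-likelihood test, DESeq2 or limma-voom. At an unadjusted p below 0.05 in edgeR there were 8, all lower (9.32% of all genes were lower). Of the 24, 17 were fitted below 0 and 7 above (50.4% of all genes were below), and the median log2 fold change was -0.21. In 10 of the 24 the regions did not overlap, with the posterior libraries lower in each, as in 13.4% of all genes. Without posterior 1, 13 were called lower and 5 higher, where 21.2% of all genes were called lower and 25.5% higher. In posterior 1 alone 23 of the 24 were fitted below 0 (50.9% of all genes), with a median of -0.16. The anterior libraries themselves had median log2 ratios to their mean of -0.046, -0.052 and 0.099, beside -0.15, -0.24 and -0.19 in posterior 1, 2 and 3.

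Among the mitotic kinases, Aurka, which acts at the spindle poles, had 69.4, 71.6 and 78.7 CPM in the anterior and 66.8, 48.3 and 49.1 CPM in the posterior libraries. This was the largest difference toward lower values in the group, with a log2 fold change of -0.42 (SE 0.14, adjusted p = 0.13, edgeR's quasi-likelihood test), but -0.14 in posterior 1 alone. Cdk1, the kinase that triggers mitosis, Plk1 and Aurkb had log2 fold changes of -0.30, -0.29 and -0.26. The cyclins that activate Cdk1 and Cdk2 were similar in size. Ccna2 had 222, 229 and 236 CPM in the anterior and 216, 181 and 182 CPM in the posterior libraries, with a log2 fold change of -0.25 (SE 0.10, adjusted p = 0.19). Ccnb1 had 116, 109 and 118 CPM and 95.7, 96.6 and 96.8 CPM, and the 3 posterior libraries were almost equal and all below the anterior ones (log2 fold change -0.25, SE 0.082, adjusted p = 0.12).

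For the anaphase-promoting complex, its activator Cdc20 had 104, 108 and 115 CPM in the anterior and 101, 78.2 and 75.7 CPM in the posterior libraries (log2 fold change -0.36, SE 0.13). Its ubiquitin-conjugating enzyme Ube2c had 104, 108 and 121 CPM and 110, 76.1 and 71.5 CPM, with posterior 1 within the anterior range (log2 fold change -0.37, SE 0.17). Ube2c lies antisense to Tnnc2, a troponin gene of fast muscle. Counting by strand keeps most of their reads apart, and what the rest add was not tested. The transcription factors of the G2/M genes, Mybl2 and Foxm1, did not overlap between regions, with log2 fold changes of -0.34 (SE 0.12) and -0.18 (SE 0.093) over all libraries and -0.29 and -0.16 in posterior 1 alone. The spindle genes Prc1 and Tpx2 had values of similar size in posterior 1 alone, with -0.19 and -0.16 over all libraries and -0.23 and -0.16 in posterior 1. The checkpoint genes Bub1, Bub1b and Mad2l1 had log2 fold changes of 0.060, -0.088 and -0.055. With the correction for exon length (8032 bases in Mad2l1, with a coding sequence of 615) that of Mad2l1 was -0.39, with an adjusted p of 0.16 in edgeR's quasi-likelihood test.

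Mki67, which encodes the proliferation antigen Ki-67, did not follow its group. It had 227, 205 and 271 CPM in the anterior libraries and 211, 395 and 474 CPM in posterior 1, 2 and 3. Posterior 1 lay within the anterior range and the other posterior libraries above it, which gave a log2 fold change of 0.62 with a standard error of 0.28 (adjusted p = 0.21, edgeR's quasi-likelihood test). Without posterior 1 the log2 fold change was 0.89 (adjusted p = 0.00078), and in posterior 1 alone it was -0.16 (adjusted p = 0.61).

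Cenpe, a kinesin of the kinetochore, had 61.5, 57.4 and 66.4 CPM in the anterior and 54.3, 110 and 122 CPM in the posterior libraries. It showed the same split as Mki67, with a log2 fold change of 0.63 (SE 0.27, adjusted p = 0.20, edgeR's quasi-likelihood test), 0.91 without posterior 1 and -0.19 in posterior 1 alone. The kinetochore gene Cenpf had 107, 92.1 and 107 CPM and 89.6, 161 and 165 CPM. The spindle motor Kif11 had 82.9, 83.0 and 96.0 CPM and 74.1, 132 and 149 CPM. In both, posterior 1 was the lowest of the 6 libraries and posterior 2 and 3 were the highest. Top2a, topoisomerase II alpha and the most abundant G2/M member per kb (77.4 CPM per kb over all libraries), had 376, 375 and 442 CPM and 335, 441 and 457 CPM, with a log2 fold change of 0.048 (SE 0.14, adjusted p = 0.85) and -0.25 in posterior 1 alone. Mki67, Cenpf, Kif11 and the other members outside the naming rule were chosen after their values were seen.

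**Figure D3:**
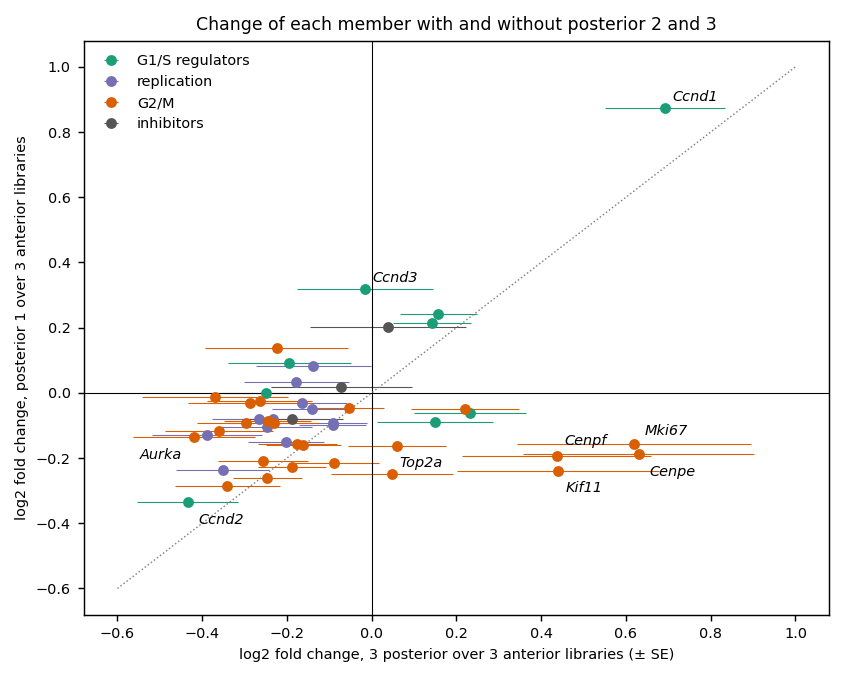
Log2 fold change of each member over all libraries (x axis, with its SE) against that of posterior 1 alone (y axis), coloured by group, with equality as a dotted line. Ccnd1 and Ccnd2 lie far from 0 on both axes, and Mki67, Cenpe, Cenpf and Kif11 lie at 0.44 to 0.63 on the x axis and at -0.16 to -0.24 on the y axis.

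The split within the posterior group went with coding length and with GC content, and less with exon length, and these were not separated. The log2 ratio of the mean of posterior 2 and 3 to posterior 1 had a Spearman correlation with coding length of 0.64 over the 48 members, and of 0.46 with exon length and -0.58 with GC content. Over all genes with a value these correlations were 0.53 (13836 genes), 0.52 and -0.21 (15471 genes each). The points of each correlation share the same 3 libraries, and the values are a description. All 7 members with a coding length of at least 3000 bases (Mki67, Cenpf, Cenpe, Top2a, Bub1, Bub1b and Kif11) had ratios above 0, from 0.18 to 1.09 with a median of 0.86, as had 1831 of the 2007 genes of this length in all. Of the 41 shorter members, 35 were below 0, with a median of -0.21. Of all genes shorter than the limit, 6158 of 11829 were below 0, with a median of -0.024. The 6 shorter members above 0 were Cdk2 (0.42), Kif23 (0.38), Ccne2 (0.34), Prc1 (0.056), Ccnb1 (0.016) and Mcm4 (0.0043).

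With the correction for exon length, the log2 fold change was 0.11 for Mki67, 0.23 for Cenpe, -0.097 for Cenpf, 0.25 for Kif11 and -0.15 for Top2a. This correction left the replication genes with a median of -0.21 and the G2/M genes with -0.19, and Ccnd1 was called with 0.64 (adjusted p = 0.042, edgeR's quasi-likelihood test). It called 2 of the 48 members, where 9.11% of all genes were called.

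**Figure D4:**
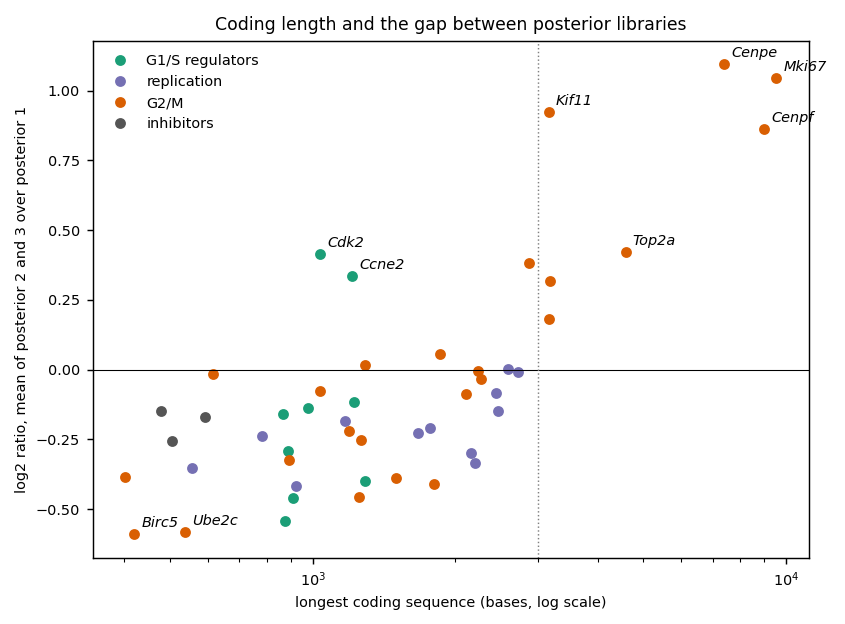
Longest coding sequence of each member (x axis, bases, log scale) against the log2 ratio of the mean of posterior 2 and 3 to posterior 1 (y axis), coloured by group, with the limit of 3000 bases as a dotted line. All 7 members right of the line lie above 0, and 35 of the 41 left of it lie below 0.

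The 3 inhibitors were not called by edgeR's quasi-likelihood test, DESeq2 or limma-voom, and none had an unadjusted p below 0.05 in edgeR. Cdkn1a, which encodes p21, had 72.0, 53.9 and 46.4 CPM in the anterior and 58.5, 50.0 and 55.6 CPM in the posterior libraries, with a log2 fold change of -0.072 (SE 0.17, adjusted p = 0.80). The anterior libraries spanned the posterior ones. Cdkn1b (p27) had 70.8, 69.5 and 87.5 CPM and 71.9, 65.0 and 62.9 CPM, with a log2 fold change of -0.19 (SE 0.12, adjusted p = 0.35). Cdkn2c (p18) had 17.2, 20.1 and 26.0 CPM and 24.3, 22.5 and 18.2 CPM, with a log2 fold change of 0.038 (SE 0.18, adjusted p = 0.91). All 3 overlapped between regions.

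Of 135 other genes of the pathway, in lists drawn from textbook knowledge, 134 were tested and 4 were called, 3 lower and 1 higher in the posterior palate, where 7.46% of all genes were called. The 21 other G1/S regulators had a median log2 fold change of 0.076 with 0 called, the 45 other replication genes -0.12 with 0 called, the 56 other G2/M genes -0.099 with 1 called, and the 12 other inhibitors and exit genes tested -0.19 with 3 called, by edgeR's quasi-likelihood test. At an unadjusted p below 0.05, the 4 lists had 2 genes (both higher), 9 (6 lower), 12 (9 lower) and 3 (2 lower), where 9.32% of all genes were lower and 15.9% higher. DESeq2 called 7 genes over the 4 lists together, 5 lower and 2 higher, where it called 12.6% of all genes (4.06% lower and 8.56% higher). By limma-voom, which called 6.85% of all genes, 3 were called, all lower and none in the first 2 lists. As in the members, replication and G2/M genes were fitted below 0 more often than above, in 32 of 45 and 39 of 56, against 50.4% of all genes.

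The called genes included 3 that restrain the cycle. Btg1, an antiproliferative factor, had 314, 313 and 312 CPM in the anterior and 197, 178 and 188 CPM in the posterior libraries. It was lower in the posterior palate with a log2 fold change of -0.74 (SE 0.086, adjusted p = 0.0029, edgeR's quasi-likelihood test) and was called in all 17 alternatives. Gas1, a growth arrest protein of the cell surface that also binds hedgehog ligands, had 174, 169 and 171 CPM and 127, 111 and 125 CPM, with a log2 fold change of -0.50 (SE 0.090, adjusted p = 0.017, edgeR's quasi-likelihood test). Its adjusted p was 0.096, 0.092 and 0.073 without anterior 1, 2 or 3 and 0.069 without posterior 2.

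Cdkn2b, which encodes the Cdk4 and Cdk6 inhibitor p15, had 1.90, 1.02 and 1.99 CPM in the anterior and 12.1, 8.38 and 3.91 CPM in the posterior libraries. Every posterior library was above every anterior one, and posterior 3 was the lowest of them. Its log2 fold change was 2.31 (SE 0.46, adjusted p = 0.024, edgeR's quasi-likelihood test), and 2.88 in posterior 1 alone. The adjusted p was 0.089, 0.11 and 0.077 without anterior 1, 2 or 3, 0.075 without posterior 2 and 0.065 by limma-voom. Its neighbour Cdkn2a, chosen after its values were seen, was left out by the filter, with 4, 3 and 1 counts in the anterior and 23, 15 and 8 counts in the posterior libraries.

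Pbk, a mitotic kinase, had 53.6, 57.3 and 62.7 CPM in the anterior and 45.8, 40.7 and 39.1 CPM in the posterior libraries, and its log2 fold change was -0.47 (SE 0.11, adjusted p = 0.043, edgeR's quasi-likelihood test). It was not called in posterior 1 alone or with the library-group term (-0.34 and adjusted p = 0.12 in both). Without 1 replicate it was called only where posterior 1 was left out (adjusted p = 0.0016), and the other 5 such fits gave 0.11 to 0.16.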

How the data were processed

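Bulk RNA-seq of 3 anterior and 3 posterior E14.0 palate libraries was grouped by the labels. The authors deposited counts of reads per Ensembl gene, without normalisation, unstranded and for each strand, as STAR lays such files out. Mapping to mm10 by HISAT2, counting by StringTie and testing by DESeq2 1.30.1 are what the study's methods and the submitters' processing notes name, and the annotation version is not given in the sources used here. Reads mapping to several places were not counted, which touches the members with named pseudogenes (Ccnd3, Pcna, Tyms, Ccnb1 and Ccnb2). The reverse-stranded counts, 18.95 to 23.1 times those of the other strand, were used. Symbols, positions and lengths came from GENCODE M21 (GRCm38), and promoters from RefSeq.

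The test was edgeR's (version 4.0.16, run in R 4.3.3) on genes that reached 10 counts in 3 or more libraries (TMM normalisation, quasi-likelihood test with region as the only term, Benjamini-Hochberg adjustment, threshold 0.05), after the fits were tested on simulated data. A region's replicates differed beyond sampling noise (chi-square per gene 3.73 to 68.0). The p-values measure only the spread between these samples, and library totals of 11378736 to 15172733 counts set the counting error. The members and lists were chosen with earlier results of these data known. Genes were named if called, if inhibitors, or if highest per kb or most changed in each direction in their group (the other genes of the pathway, if called). The result of 1 gene in these lists is not reported here. Alternatives were DESeq2 1.42.0, limma-voom (limma 3.58.1), RLE size factors, library size only, no low-count filter, unstranded counts, a replicate block, a length correction, both together, a library-group term, and leaving out replicates.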

Additional observations from a re-analysis of the deposited data

How the results depend on the processing

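Of 1169 genes called, 406 were lower and 763 higher in the posterior palate. DESeq2 called 1978 (637 and 1341), no low-count filter gave 2162 (646 and 1516), and the length correction 640 and the replicate block 237 lower. Leaving out 1 replicate gave 528 to 7309 genes (162 to 3316 lower and 366 to 3993 higher), with the highest counts without posterior 1. Members called numbered 2 with DESeq2 or the length correction (1 lower), 2 with the library-group term or posterior 1 alone (2 higher), and 0 to 32 without 1 replicate (0 to 25 lower and 0 to 7 higher). The other genes of the pathway called, 4 in the main comparison, numbered 7 with DESeq2 (5 lower and 2 higher) or no filter (4 higher), 2 with the replicate block (1 lower), and 1 to 70 without 1 replicate (1 to 44 lower and 0 to 26 higher), and limma-voom called 0 higher. The median log2 fold change over the members was -0.086 with the library-group term and -0.090 in posterior 1 alone. That of the replication genes was -0.082 and -0.086, and -0.28 to -0.15 without 1 replicate. That of the G1/S regulators was 0.036 with the length correction, 0.017 with this and the replicate block, 0.098 with library size only, 0.079 with unstranded counts, 0.096 with the library-group term, 0.092 in posterior 1 alone and 0.084 to 0.17 without 1 replicate. Over all 48 members the sign turned in 16 with the library-group term, 15 in posterior 1 alone, 4 with the length correction (Ccnd3, Cdk6, Cenpf and Top2a) and 1 with library size only. Among the genes followed through every alternative, it turned with the library-group term and in posterior 1 alone for Cdk4 (0.096 and 0.092), Cdkn1a (0.023 and 0.018), Cenpe (-0.18 and -0.19), Cenpf (-0.19 in both), Kif11 (-0.24 in both), Mki67 (-0.15 and -0.16) and Top2a (-0.24 and -0.25). It also turned with the length correction, alone and with the replicate block, for Cenpf (-0.097 in both) and Top2a (-0.15 in both), with library size only for Cdkn2c (-0.0046), and without 1 replicate for Cdkn1a (range -0.21 to 0.12), Cdkn2c (-0.088 to 0.21, and -0.051 without posterior 1) and Top2a (-0.034 to 0.18, and -0.0071 without posterior 2). Both posterior-1 comparisons use 1 posterior library and the length correction fits a smooth trend per library, and the cause of the other changes was not tested. Same-numbered libraries did not deviate together (correlations of -0.053, 0.045 and 0.036). Each region had 3 libraries and posterior 1 differed from posterior 2 and 3, so this cannot decide whether the numbers pair them, and the labels do not say. The replicate block lowered the calls over all genes to 829. It left out Gas1 (adjusted p = 0.060, edgeR's quasi-likelihood test) and Pbk (0.12), the latter also with the length correction (0.10). With 3 libraries a region and 2 that stand apart on 1 side, region and library group can be separated only through posterior 1.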
